A study of Mus musculus with 12 samples.

Results

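The genes described here encode protease inhibitors that the liver secretes into plasma: the murinoglobulins Mug1 and Mug2 with their relative Pzp, the serpins Serpina3k, Serpina3m and Serpina3n, and the inter-alpha-trypsin inhibitor heavy chains Itih1, Itih2, Itih3 and Itih4. The 10 symbols were listed by name, with earlier results of these arrays known. They were looked up in the deposited expression values through array rows whose platform annotation names exactly 1 gene. Several rows for a symbol were reduced to the one whose mean over the 12 arrays was highest. This found 8 of the 10 symbols among 19938 genes with a row. Serpina3k and Serpina3m had no row under this rule and were not analysed here. All 8 genes passed the filter that left out the 25% of genes with the lowest mean, so they are among the 14953 genes tested. Mug2 was chosen by its already known low level in transgenic livers, so its differences between those livers and the other 2 groups are given as descriptions with no test.

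Liver RNA from 12 mice was hybridised to one-colour Affymetrix arrays, 1 mouse per array, in 3 groups of 4. The wild type group served as control, the transgenic group carried constitutively active FoxO3 expressed under the LAP promoter, and the third group carried the same transgene and received metformin, a glucose-lowering biguanide. All mice were sampled at 7 weeks of age and had a mixed C57BL/6 and NMRI origin with at least 4 backcrosses to C57BL/6. The labels give no sex and no metformin dose or duration, and the series holds no wild type mice given metformin. The labels call the 4 mice of a group biological replicates. In whole liver, fewer cells of a type and less RNA per cell cannot be told apart. Values are log2 signals, so a difference of 1 is a doubling, and they rank arrays within a gene but do not rank genes against each other.

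Murinoglobulins and pregnancy zone protein belong to the alpha-2-macroglobulin family. These large thioester proteins offer a bait region to many proteases, fold around the one that cuts it, and carry it to clearance receptors. Serpins inhibit in another way: a protease cleaves their exposed loop and stays covalently bound to the changed inhibitor. Rodents carry a large cluster of Serpina3 genes where humans have a single SERPINA3, the acute phase protein alpha-1-antichymotrypsin. Inter-alpha-trypsin inhibitors couple heavy chains to the light chain bikunin, made from Ambp, through a chondroitin sulfate bridge, and the heavy chains can be passed on to hyaluronan in the extracellular matrix. Itih4 differs from the other heavy chains in that it does not bind bikunin. Hepatocytes are the main source of most of these proteins.

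The sequence upstream of Mug1 and Mug2 is shown because the genes are neighbours of one family with different values across these arrays. The sequences upstream of Serpina3n and Itih4 are shown because they were the members that held a searched motif. RefSeq windows on GRCm38.p6 were found for all 8 measured members. The motif search covered the 250 bases before the annotated start in each of the 8. The printed bases run 5′ to 3′ on the gene's own strand and stop before the first base of the gene, so that 205 bases are shown for Mug1, 181 for Mug2, 188 for Serpina3n and 250 for Itih4. Mug1 lies at chr6:121838291-121838495, Mug2 at chr6:122006548-122006728, Serpina3n at chr12:104406458-104406645 and Itih4 at chr14:30886226-30886475, all on the plus strand. Where the run before a gene is shorter than 250 bases, the search went on past the first base of that gene. Capitals mark the motif match.
Mug1: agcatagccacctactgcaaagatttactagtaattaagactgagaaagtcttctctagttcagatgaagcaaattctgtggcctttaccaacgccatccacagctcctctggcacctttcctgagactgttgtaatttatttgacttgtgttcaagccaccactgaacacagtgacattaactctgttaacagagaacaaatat
Mug2: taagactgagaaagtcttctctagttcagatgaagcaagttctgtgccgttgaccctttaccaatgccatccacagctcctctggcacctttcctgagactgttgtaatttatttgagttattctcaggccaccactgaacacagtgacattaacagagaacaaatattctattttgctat
Serpina3n: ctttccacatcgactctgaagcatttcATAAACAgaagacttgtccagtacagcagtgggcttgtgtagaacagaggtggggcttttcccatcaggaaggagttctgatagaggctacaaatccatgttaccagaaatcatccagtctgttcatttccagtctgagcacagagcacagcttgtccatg
Itih4: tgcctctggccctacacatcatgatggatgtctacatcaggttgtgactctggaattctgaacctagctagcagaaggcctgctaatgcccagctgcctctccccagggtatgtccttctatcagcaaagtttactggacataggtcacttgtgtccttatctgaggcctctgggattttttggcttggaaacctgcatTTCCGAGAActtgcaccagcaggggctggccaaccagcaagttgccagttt

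A local alignment of the printed Mug1 and Mug2 runs matched 153 of 177 aligned positions, with 8 mismatches and 16 gap positions, or 86.4% identity. In RefSeq no protein-coding gene lies between Mug1 and Mug2, and the transcribed pseudogene Gm10319 is the next gene beyond Mug2. Pzp lies on the same chromosome with 108 protein-coding genes between it and Mug2. Itih1, Itih3 and Itih4 are neighbours on chromosome 14, while Itih2 lies beside Itih5 on chromosome 2. Among the windows of the 8 members, searched on both strands, the forkhead-type letters GTAAACA and the insulin response letters CAAAACA matched 0 members. The related letters ATAAACA matched 1, Serpina3n, at bases 28 to 34 of the printed run, and the STAT-type spacing TTCNNNGAA matched 1, Itih4, at bases 200 to 208. Of 32851 promoter windows, GTAAACA occurred in 3.17% and CAAAACA in 5.56%. In the same windows ATAAACA occurred in 4.16% and TTCNNNGAA in 7.02%. No match within a member overlapped another. These matches are letters only, and no binding was measured here.

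The arrays were on a common scale, with medians between 5.69 and 5.85 and maxima between 14.16 and 14.31. Foxo3 lay between 8.54 and 8.89 in wild type, 8.60 and 8.97 in transgenic and 8.29 and 9.11 in metformin-treated transgenic livers, so its row does not separate the groups, and whether that row detects the transgene is not given in the labels. Transgenic replicate 2 stood apart: its mean correlation over genes was 0.984 with the wild type arrays and 0.968 with its own group. Leaving out the transgenic array most like wild type tends to enlarge the differences, so results without it are no separate support. All 4 transgenic arrays had signal of Y-linked genes, and all 4 metformin-treated arrays had Xist signal, the RNA of the inactive X chromosome. Wild type replicates 1 and 4 had Xist signal and replicates 2 and 3 Y-linked signal. Metformin treatment and sex signal therefore cannot be told apart in the comparison of the transgenic groups.

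Mug2 was the member that varied most. Its wild type signals were 12.53, 12.41, 12.60 and 12.52 for replicates 1 to 4. The transgenic signals were 8.44, 12.35, 8.46 and 10.18, and the metformin-treated signals were 12.34, 12.39, 11.89 and 12.49. Transgenic replicates 1, 3 and 4 lay far below every other array, while replicate 2 lay just below the lowest wild type liver and inside the metformin-treated range. Set against the wild type mean, Mug2 was 16.9-fold lower in transgenic replicate 1, 16.6-fold lower in replicate 3, 5.05-fold lower in replicate 4 and 1.12-fold lower in replicate 2. The SD was 0.081 in wild type, 1.85 in transgenic and 0.26 in metformin-treated livers (n = 4 each). The fitted transgenic minus wild type difference was -2.66 ± 0.66 (SE, 4 arrays a group), and it was -3.49 without transgenic replicate 2.

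A second row that names Mug2 alone also had its 3 lowest signals in transgenic replicates 1, 3 and 4. Its wild type signals were 12.33, 11.94, 12.23 and 12.27, its transgenic signals 7.79, 11.44, 7.94 and 9.35, and its metformin-treated signals 11.75, 11.85, 11.53 and 11.99. In this row transgenic replicate 2 was below all 4 wild type and all 4 metformin-treated livers, at 1.69-fold under the wild type mean. A row annotated to Gm10319, Mug2, Mug1 and Mug-ps1 together differed less, by -0.67 between transgenic and wild type means. A row annotated to Mug1 and Mug-ps1 differed by -0.26. Similar gene copies can hybridise to each other's probes, and probe sequences were not examined, so the share of each gene in any of these rows is uncertain.

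**Figure D1:**
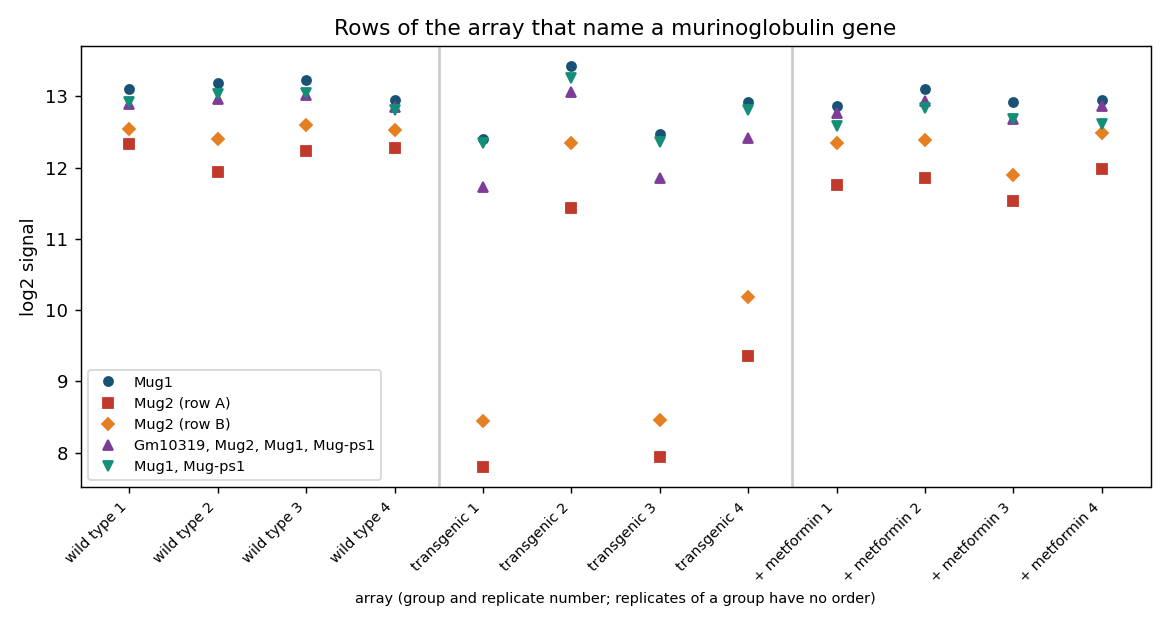
Log2 signal (vertical axis) of the 5 array rows that name a murinoglobulin gene, for each of the 12 arrays (horizontal axis); each point is 1 row on 1 array. Both Mug2 rows (row B is the one used for Mug2) fall in transgenic replicates 1, 3 and 4, while the Mug1 row stays between 12.40 and 13.43.

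Mug1, which encodes the other murinoglobulin, moved far less. Its signals were 13.10, 13.19, 13.23 and 12.94 in wild type, 12.40, 13.43, 12.46 and 12.92 in transgenic, and 12.86, 13.10, 12.92 and 12.94 in metformin-treated livers. Transgenic replicates 1 and 3 were the lowest of the 12 and transgenic replicate 2 the highest. The difference of -0.31 ± 0.18 (SE) from wild type did not pass the test (limma, Benjamini-Hochberg adjusted p = 0.259), and its 95% interval of -0.72 to 0.089 includes 0. Pzp, the family member whose human counterpart rises in pregnancy, gave 13.44, 13.40, 13.52 and 13.48 in wild type, 13.27, 13.48, 13.12 and 13.31 in transgenic, and 13.43, 13.45, 13.31 and 13.43 in metformin-treated livers. Transgenic replicate 2 lay among the wild type arrays and the other 3 transgenic arrays below them. The Pzp difference of -0.17 ± 0.080 (SE) did not pass the test (limma adjusted p = 0.176). Without transgenic replicate 2, Mug1 (-0.52, limma adjusted p = 0.0102) and Pzp (-0.23, limma adjusted p = 0.0422) passed. For both genes that array lay on the wild type side of the transgenic group, so larger differences without it follow from the choice.

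**Figure D2:**
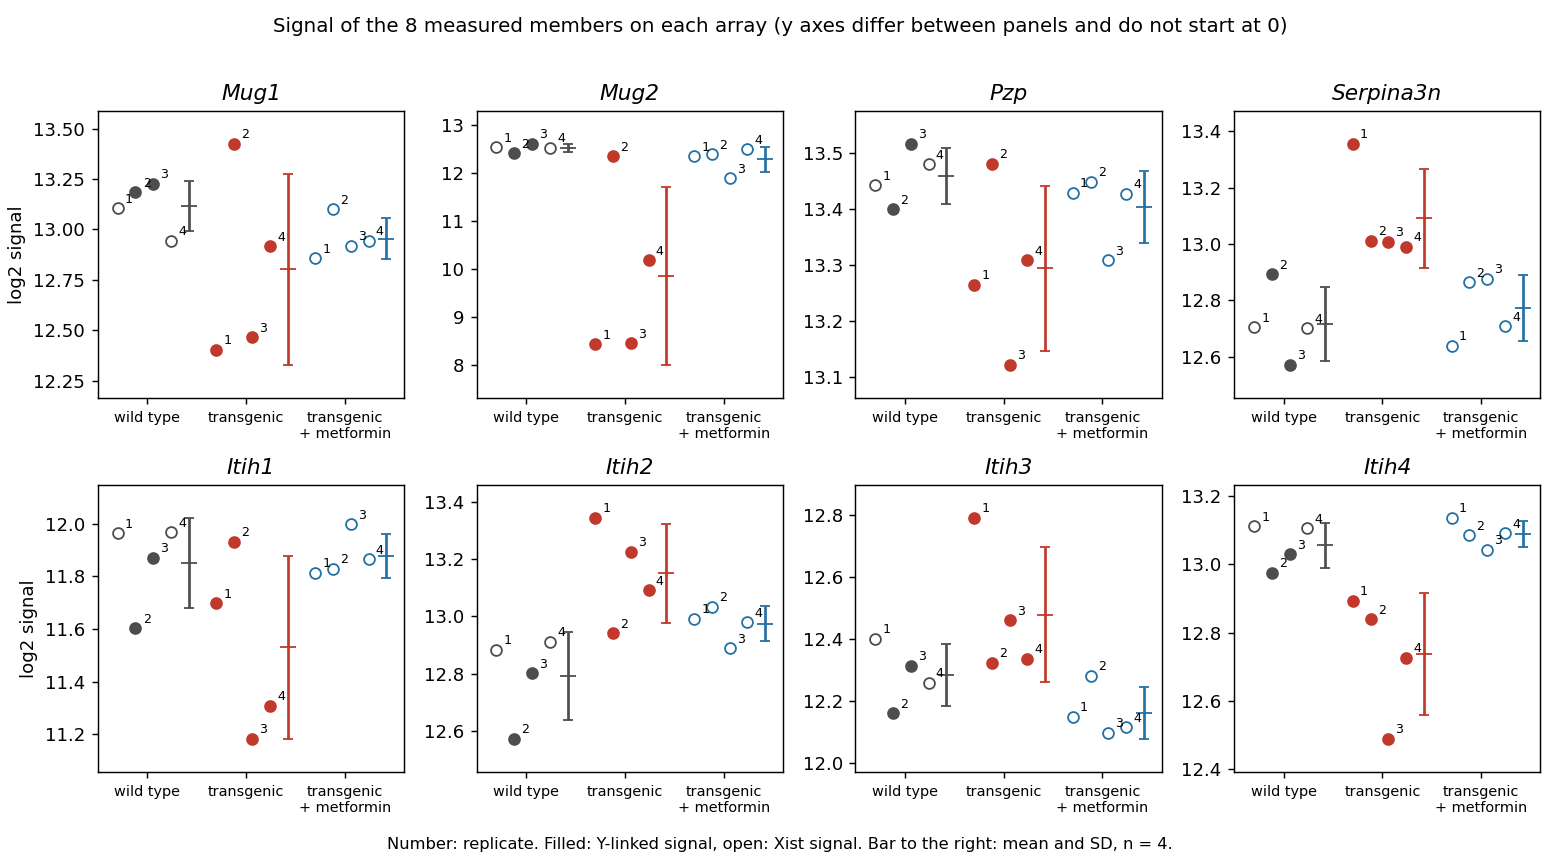
Log2 signal (vertical axis, own scale per panel) of the 8 measured genes in wild type, transgenic and metformin-treated transgenic livers; points are single arrays numbered by replicate (filled with Y-linked signal, open with Xist signal), and the bar beside them is the group mean with its SD (n = 4). Transgenic replicate 2 lies outside the other 3 transgenic arrays, on the side of the wild type mean, for 6 of the 8 genes.

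Serpina3n, the mouse serpin most often used as a marker of an acute phase response, was higher with the transgene. Wild type livers gave 12.71, 12.89, 12.57 and 12.70, transgenic livers 13.35, 13.01, 13.01 and 12.99, and metformin-treated livers 12.64, 12.87, 12.88 and 12.71. All 4 transgenic livers lay above every other array, replicate 2 included, and the wild type and metformin-treated ranges overlapped. The rise of 0.37 ± 0.10 (SE), or 1.30-fold, passed the test (limma adjusted p = 0.0332).

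Of the heavy chains, Itih2 rose and Itih4 fell with the transgene, while Itih1 and Itih3 did not pass the test. Itih2, one of the chains coupled to bikunin, gave 12.88, 12.57, 12.80 and 12.91 in wild type, 13.34, 12.94, 13.23 and 13.09 in transgenic, and 12.99, 13.03, 12.89 and 12.98 in metformin-treated livers. All 4 transgenic values exceeded the 4 wild type values, replicate 2 by the least, and the metformin-treated values reached above transgenic replicate 2. Itih2 rose by 0.36 ± 0.10 (SE), or 1.28-fold (limma adjusted p = 0.0351). Itih4, the chain without bikunin, gave 13.11, 12.98, 13.03 and 13.11 in wild type, 12.89, 12.84, 12.49 and 12.73 in transgenic, and 13.14, 13.09, 13.04 and 13.09 in metformin-treated livers. Every transgenic liver lay below every liver of the other groups. The Itih4 difference was -0.32 ± 0.087 (SE), a 1.25-fold lower level (limma adjusted p = 0.0325).

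Itih1 and Itih3 encode the remaining chains that couple to bikunin. Itih1 gave 11.96, 11.60, 11.87 and 11.97 in wild type, 11.70, 11.93, 11.18 and 11.31 in transgenic, and 11.81, 11.83, 11.999 and 11.86 in metformin-treated livers. Transgenic replicates 3 and 4 were the lowest arrays, but replicates 1 and 2 were among the wild type values. Its difference was -0.32 ± 0.15 (SE, limma adjusted p = 0.164), and without transgenic replicate 2 it was -0.45 and passed (limma adjusted p = 0.0224). Itih3 gave 12.40, 12.16, 12.31 and 12.26 in wild type, 12.79, 12.32, 12.46 and 12.34 in transgenic, and 12.15, 12.28, 12.10 and 12.12 in metformin-treated livers. Transgenic replicate 1 was the highest array, the transgenic and wild type ranges overlapped, and the difference was 0.19 ± 0.10 (SE, limma adjusted p = 0.219).

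Counted over the 7 members besides Mug2, 3 passed the test between transgenic and wild type, 2 higher and 1 lower. Of all genes tested, 14.1% passed, 7.97% higher and 6.15% lower. The groups did not overlap for 3 of these 7 members, against 21.9% of all genes. The median difference of the 7 was -0.17 and that of all genes -0.013. Without transgenic replicate 2, 6 of the 7 passed and 26.8% of all genes did. As that array was the transgenic one most like wild type, the higher count is no separate support. In a test of any difference among the 3 groups, Serpina3n (limma F test, adjusted p = 0.0356) and Itih4 (limma F test, adjusted p = 0.0204) passed among these 7, and 24.2% of all genes passed. For all 8 members the SD of the transgenic group exceeded that of both other groups. As the fit pools 1 spread over the groups, its errors can be too small for comparisons with the transgenic group. For metformin-treated against wild type livers they can be too large.

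The calls of Serpina3n, Itih2 and Itih4 against wild type were close to the threshold. Serpina3n lost its call without transgenic replicate 1, 3 or 4 or wild type replicate 1, 3 or 4 (limma adjusted p from 0.0514 to 0.0912). Itih2 lost it without transgenic replicate 1, 3 or 4, any wild type replicate, or metformin-treated replicate 4 (limma adjusted p from 0.0511 to 0.104), and Itih4 without transgenic replicate 3 or 4 or any wild type replicate (limma adjusted p from 0.0544 to 0.0843). With sex signal as a covariate, the differences were 0.36 for Serpina3n (limma adjusted p = 0.115), 0.46 for Itih2 (limma adjusted p = 0.0421) and -0.27 for Itih4 (limma adjusted p = 0.140), and 4.35% of all genes passed. Among only the arrays with Y-linked signal, 4 transgenic and 2 wild type, they were 0.36, 0.46 and -0.27, with none of the 3 past the threshold and 0.0602% of all genes passing. Mug2 differed by -2.65 in those arrays.

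**Figure D3:**
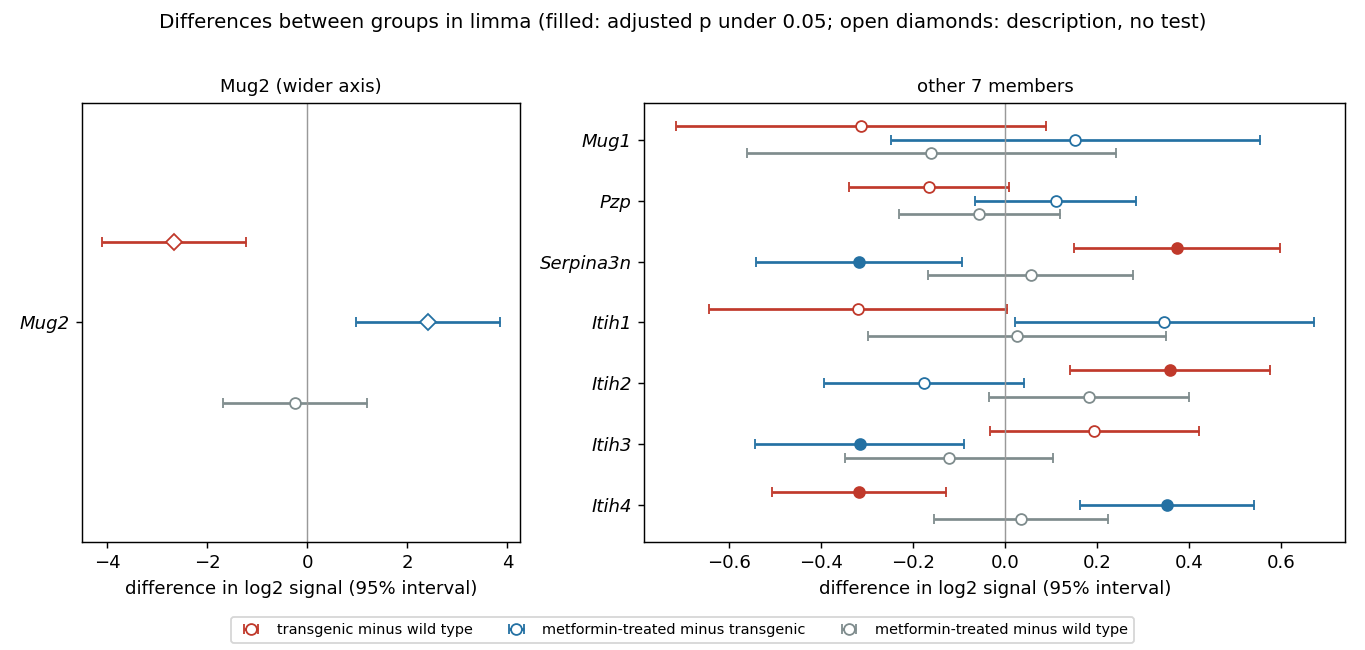
Fitted log2 differences (horizontal axis) with 95% intervals for the 8 genes (vertical axis) in the 3 comparisons; filled circles passed an adjusted p of 0.05 in limma, open circles did not, and the open diamonds are the Mug2 differences given with no test. Serpina3n and Itih2 lie above 0 and Itih4 below 0 for transgenic minus wild type, and no gene passes for metformin-treated minus wild type.

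The next comparison was within the transgenic mice, metformin-treated against untreated. This comparison shares the transgenic arrays with the previous one, so no overlap is drawn between them. Itih4 was higher with metformin by 0.35 ± 0.087 (SE), or 1.28-fold (limma adjusted p = 0.0129), and its call held with each of the 12 arrays left out. Serpina3n was lower, at -0.32 ± 0.10 (SE, limma adjusted p = 0.0408), with all 4 treated livers below all 4 untreated ones. Itih3 differed by -0.32 ± 0.10 (SE, limma adjusted p = 0.0439), with all treated values below the lowest untreated value of 12.32. Mug2 differed by 2.42 ± 0.66 (SE), or 5.35-fold, which is a description with no test, since it rests on the transgenic arrays for which Mug2 was chosen. The Mug2 ranges overlap at transgenic replicate 2.

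The other members did not pass between the transgenic groups. Itih1 differed by 0.35 ± 0.15 (SE, limma adjusted p = 0.112), Itih2 by -0.18 ± 0.10 (SE, limma adjusted p = 0.220), Mug1 by 0.15 ± 0.18 (SE, limma adjusted p = 0.583) and Pzp by 0.11 ± 0.080 (SE, limma adjusted p = 0.342). In all, 3 of the 7 members besides Mug2 passed, 1 higher (Itih4) and 2 lower (Serpina3n and Itih3). Of all genes, 24.7% passed, 10.6% higher and 14.1% lower. The groups did not overlap for 3 of these 7 members, against 21.6% of all genes. The median over the 7 was 0.11 and over all genes -0.0058.

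Single arrays and sex signal bear on these calls. Without transgenic replicate 2, 5 of the 7 and 32.3% of all genes passed, with Mug1 at 0.36 (limma adjusted p = 0.0456) and Itih1 at 0.48 (limma adjusted p = 0.0142) gained, and the Mug2 difference was 3.25. These values are no separate support, since that array was the transgenic one most like wild type. The Serpina3n call ended without transgenic replicate 1, 3 or 4, wild type replicate 1 or 4, or metformin-treated replicate 1, 2 or 4 (limma adjusted p from 0.0508 to 0.107), and the Itih3 call without transgenic replicate 1 or 3, any wild type replicate, or metformin-treated replicate 1, 3 or 4 (limma adjusted p from 0.0513 to 0.1002). With sex signal as a covariate, 0 of the 7 members and 0.548% of all genes passed in limma. The estimates were then 2.52 for Mug2, -0.29 for Serpina3n, -0.42 for Itih3 and 0.26 for Itih4. Within wild type, the means of the Xist-signal and Y-signal arrays were 12.53 and 12.50 for Mug2, 12.70 and 12.73 for Serpina3n, 12.33 and 12.24 for Itih3 and 13.11 and 13.00 for Itih4. They lay further apart for Itih1 (11.97 and 11.74), Itih2 (12.90 and 12.69) and Mug1 (13.02 and 13.21). For Pzp both were 13.46. Each of these means rests on few arrays.

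Between metformin-treated transgenic and wild type livers, 0 of the 8 members passed in limma, and 0 had an unadjusted p under 0.05. Of all genes 2.43% passed, 0.99% higher and 1.44% lower. The groups overlapped for all 8 members, while they did not overlap for 14.4% of all genes. Differences ran from -0.24 for Mug2 to 0.18 for Itih2. The 95% interval was -1.68 to 1.20 for Mug2 and -0.036 to 0.40 for Itih2. The Mug2 interval takes its width from the pooled spread, which includes the transgenic arrays. Its SE was 0.66 in this fit and 0.125 with only the 8 arrays compared. For Serpina3n the interval was -0.17 to 0.28, for Itih4 it was -0.16 to 0.22 and for Itih3 it was -0.35 to 0.10. The direction of the Itih1 difference (0.026) turned under several settings, among them quantile normalization (-0.0089), as did that of Itih4 (0.033) with the sex covariate (-0.012).

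Other genes of the pathway were grouped in lists written from general knowledge. Ambp, which encodes bikunin, and Itih5, a further heavy chain family gene, were the 2 genes tested of the light chain and partner list, in which 6 of 8 genes had a row and 4 of those fell to the filter on low means. Itih5 rose by 0.98 ± 0.10 (SE) in transgenic livers (limma adjusted p = 6.97e-04), from 7.41 to 7.74 in wild type to 8.45 to 8.72, and was lower with metformin by -0.80 ± 0.10 (SE, limma adjusted p = 4.95e-04). Ambp did not pass in any comparison, with group means of 13.08, 12.96 and 13.06 in wild type, transgenic and metformin-treated livers. Of 3 other thioester genes tested, C4b, the complement component, fell with the transgene (-0.62 ± 0.15, SE, limma adjusted p = 0.0232). A2m, the gene that carries the alpha-2-macroglobulin symbol, passed in no comparison. Its group mean was 6.24 in wild type, 5.98 in transgenic and 6.06 in metformin-treated livers. Serpina3a, the only other Serpina3 gene tested, did not pass in any comparison either. With transgenic replicate 2 left out, 2 of the 3 thioester genes and Serpina3a fell against wild type, and 1 thioester gene was higher with metformin. In that setting 26.8% of all genes passed against wild type and 32.3% between the transgenic groups.

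Of 12 other plasma serpins, 3 fell and 0 rose with the transgene. These were Serpina1d (-0.66) and Serpina1c (-0.52), which encode alpha-1-antitrypsins and may share probes with their near-identical copies, and Serpina12, vaspin (-1.91 ± 0.59, SE). The Serpina12 call lay at the threshold (limma adjusted p = 0.0498). Its wild type values were scattered, from 5.79 to 8.43, and overlapped the transgenic range of 4.23 to 6.65. Between the transgenic groups 3 were higher with metformin and 0 lower: Serpina1d (0.71), Serpina1c (0.51) and Serpinc1, antithrombin (0.32). Of 15 further secreted protease inhibitors, 1 rose with the transgene, Kng2, a kininogen (0.53), and 2 fell, Wfdc2 (-0.97) and Tfpi2 (-1.22). With metformin 3 were higher and 0 lower, Wfdc2 (0.78), Tfpi2 (1.16) and Hrg, histidine-rich glycoprotein (0.43). Without metformin-treated replicate 3, 5 of the 15 fell with the transgene in place of 2. In that setting the share of all genes called against wild type also went from 14.1% to 21.8%. Between the transgenic groups it went from 24.7% to 28.6%. Leaving out transgenic replicate 2, 2 rose and 4 fell with the transgene, and 4 were lower with metformin. Spint2, a membrane-bound Kunitz inhibitor, was the only gene of the 8 lists past the threshold between metformin-treated and wild type livers (-0.52, limma adjusted p = 0.0413).

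A list of proteases, written as possible targets of plasma inhibitors, showed 5 falls and 0 rises among 16 genes with the transgene. With metformin 6 were higher and 0 lower. Of all genes, 6.15% fell and 7.97% rose with the transgene, and 10.6% were higher and 14.1% lower with metformin. Whether the members act on these proteases was not tested. The coagulation factor genes F7 (-1.17) and F11 (-1.87) and Hgfac, the activator of hepatocyte growth factor (-1.09), fell with the transgene. Between the transgenic groups F7 differed by 1.32, Hgfac by 1.20 and F9 by 0.79. Leaving out transgenic replicate 2 gave 10 falls with the transgene and 9 genes higher with metformin. In that setting 26.8% of all genes passed against wild type and 32.3% between the transgenic groups. The median difference of the 16 was -0.27 with the transgene, where that of all genes was -0.013.

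Acute phase and interleukin 6 pathway genes moved in both directions. Of 28 tested, 2 rose and 6 fell with the transgene, while 7.97% of all genes rose and 6.15% fell. Socs3, the feedback inhibitor of this pathway, rose by 0.65, while the acute phase genes Saa4 (-1.41) and Hp, haptoglobin (-1.15), fell. With metformin 6 were higher and 3 lower, with Saa3 at 1.26, Socs3 at -0.94 and Jak1 at -0.47. Of all genes, 10.6% were higher and 14.1% lower. Of 9 genes tested of the clearance receptor list, which also holds Lrpap1 and Hspa5, 0 passed against wild type in limma. Of all genes 14.1% passed there. Lrp1, the receptor that takes up protease complexes of the alpha-2-macroglobulin family, had a difference of -0.42 ± 0.23 (SE, limma adjusted p = 0.230). Asgr1, a subunit of the asialoglycoprotein receptor, was higher with metformin than without (0.67) and was the only one of the 9 that passed. Between the transgenic groups 24.7% of all genes passed. Without transgenic replicate 2, 2 genes of this list fell with the transgene and 2 were higher with metformin. The shares of all genes that passed were then 26.8% against wild type and 32.3% between the transgenic groups. Without metformin-treated replicate 3, 1 fell with the transgene and 0 were higher with metformin in limma. In that setting the shares of all genes were 21.8% and 28.6%, in the same order.

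**Figure D4:**
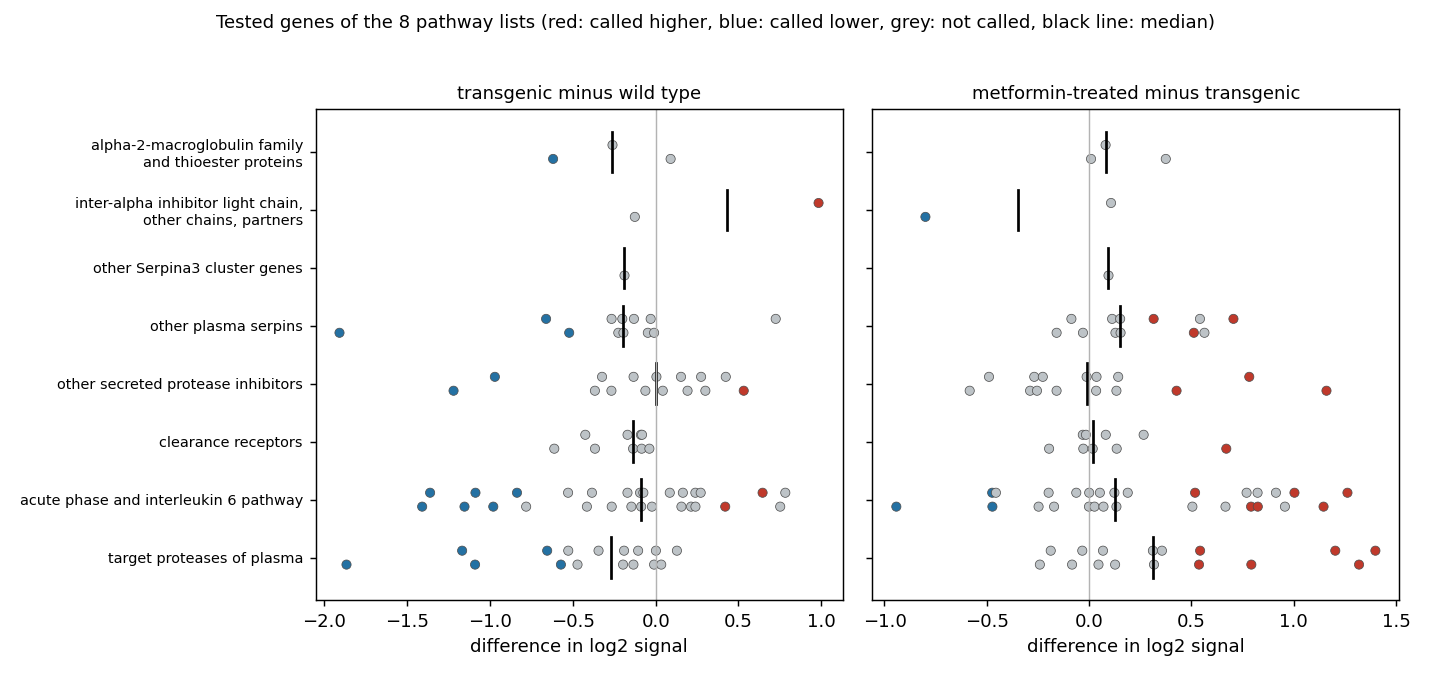
Log2 difference (horizontal axis) of each tested gene of the 8 pathway lists (vertical axis) for transgenic minus wild type and metformin-treated minus transgenic livers; red points passed an adjusted p of 0.05 in limma above 0, blue points below 0, grey points did not pass, and the black line is the list median. Among the 16 genes of the target protease list, 5 pass below 0 with the transgene and 6 pass above 0 with metformin. Of all genes, 6.15% and 10.6% do so.

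Cell type markers were read beside these values. The log2 signals of 7 hepatocyte markers, Alb among them, summed to values between 92.1 and 92.4 in wild type, 91.4 and 92.2 in transgenic and 91.8 and 92.7 in metformin-treated livers. Of the 7, Ttr alone fell with the transgene (-0.44). Those of 10 Kupffer cell markers summed to between 87.9 and 95.4 in wild type, 93.6 and 101.7 in transgenic and 86.3 and 95.5 in metformin-treated livers. Against wild type 4 of the 10 rose (Clec4f, Cd5l, Marco and C1qa), and with metformin 4 were lower (Cd5l, Marco, Cd68 and C1qa). With transgenic replicate 2 left out these counts were 7 and 6, and without metformin-treated replicate 3 they were 9 and 1. Against wild type, the share of all genes called moved from 14.1% to 26.8% and 21.8% in these settings, in that order. Between the transgenic groups that share moved from 24.7% to 32.3% and 28.6%. The Kupffer cell sums were thus highest in the transgenic group, as were Serpina3n and Itih2, and their part in those results was not tested.

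The genes with the profile most like Mug2 were chosen by the root mean square difference over the 12 arrays after centring each gene. Gm10319, the pseudogene beside Mug2, was nearest at 0.283, followed by Slc22a30, an organic anion transporter family gene, at 0.305, and Dio1, the deiodinase that activates thyroid hormone, at 0.352. Gm10319 gave 5.76, 9.88, 5.66 and 7.08 in transgenic replicates 1 to 4 against 9.01 to 9.49 in wild type, and its probes may share sequence with Mug2. Slc22a30 gave 6.79, 10.11, 7.05 and 8.56 against 10.20 to 10.67, and Dio1 gave 6.47, 10.24, 5.99 and 7.98 against 10.61 to 10.89. In each of them replicates 1 and 3 were lowest and replicate 2 highest of the transgenic livers, as with Mug2. That order follows from the choice of these genes by closeness to Mug2 over the same arrays, so it is no separate result. The nearest profiles to Serpina3n were those of Ppfibp2 (0.094), Sema6b (0.101) and Asb6 (0.102). To Itih1, the heavy chain that varied most, they were Mst1 (0.086), Tesk2 (0.104) and 3830406C13Rik (0.105).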

How the data were processed

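Mouse liver RNA from 12 samples in 3 groups of 4 was measured on Affymetrix arrays. The deposited values are log2 signals, as their range shows; per the submitters' processing notes the tool was Affymetrix Expression Console, and how the authors normalized is not stated there. Of 35556 rows, 21789 name 1 gene in the platform annotation, 1621 several and 12146 none. The row with the highest mean stood for a gene, and the dimmest 25% of 19938 genes were left out.

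Two-sided tests used lmFit and eBayes of limma 3.58.1 under R 4.3.3, 1 fit of the 12 arrays without covariates, adjusted by Benjamini-Hochberg over 14953 genes at 0.05. All adjusted p-values are from limma, and the fit was tested on simulated data. As sex covariate served the centred difference between Xist and the mean of 3 Y-linked genes. Since the transgenic and treated groups each carry 1 kind of sex signal, it is estimated almost wholly from wild type arrays.

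The members, lists and alternatives were chosen with earlier results of these data known. Named genes are the members, up to 3 called genes with the smallest p per list and comparison (or the first 2 measured), the 3 nearest profiles per family and the sample checks; single marker genes were named after their values were seen. Mug2 was left out of the count between the transgenic groups after its values were seen. Promoter windows come from RefSeq (GRCm38.p6): motifs were searched in the 250 bases before each start, and the printed bases end before the gene. Alternatives covered filter, row choice, scaling, eBayes settings, array weights, replicate block, sex signal and each array left out.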

Additional observations from a re-analysis of the deposited data

Results flagged for a closer look

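Over 24 sets of 4 arrays (8 members in 3 groups), 2 held a sample far from the others, where the gap to the nearest array, as a share of the range of the set, was above the 95% critical value of Dixon's test. Chance flags about 1 in 20 such sets. Serpina3n was 13.35 in transgenic replicate 1, against 13.01 for the nearest transgenic array, a gap of 0.943 of the range. Pzp was 13.31 in metformin-treated replicate 3, against 13.43 for the nearest array of its group, a gap of 0.843 of the range. The correlation of that array with the rest of its group, 0.974 on average, was the lowest of the metformin-treated arrays.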

How the results depend on the processing

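Against wild type, 3 of the 7 members besides Mug2 passed as reported. The count was 5 with array weights, 0 with only the 8 arrays compared, 1 with the sex covariate, 0 with only the arrays with Y-linked signal, and 0 to 6 with single arrays left out. Median centring ended the Itih4 call (-0.25, limma adjusted p = 0.0783). Between the transgenic groups, 3 of these 7 passed, against 1 with only the 8 arrays compared, 0 with the sex covariate, 0 with the sex covariate and transgenic replicate 2 left out, and 1 to 5 with single arrays left out. Against wild type, 0 treated members passed in every setting run. The Itih1 difference between treated and wild type livers turned to -0.0089 with quantile normalization, -0.0094 with array weights, -0.062 with the sex covariate, -0.089 with only the arrays with Xist signal, and ranged from -0.057 to 0.064 with single arrays left out. That of Itih4 turned to -0.012 with the sex covariate and -0.019 with only the arrays with Xist signal. The cause was not tested.

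Over all genes, 2111 passed against wild type, 4818 with array weights, 650 with the sex covariate, 9 with only Y-signal arrays and 764 to 4004 with single arrays left out. Between the transgenic groups 3695 passed, 6428 with array weights, 2354 with only the 8 arrays compared, 1845 with the sex covariate and transgenic replicate 2 left out 82 with the sex covariate alone and 2419 to 4828 with single arrays left out. Between treated and wild type livers 364 passed, 3057 with array weights, 227 with trend and robust eBayes, 135 with the replicate block, 14 with the sex covariate, 1 with only Xist-signal arrays and 70 to 775 with single arrays left out. The labels do not say whether the replicate numbers pair the mice, and the fit did not pair them. Correlations of same-numbered arrays ran from -0.18 to 0.24, and 4 of 12 exceeded 0.1. Differently numbered arrays were not set beside them, so these correlations cannot decide whether mice were paired. With the replicate block, 2, 2 and 0 members passed in the 3 comparisons. The number of arrays and a signal range whose background is not given limit what can be detected.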
